A study of Mus musculus with 8 samples.

Results

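A set of 10 genes that airway secretory cells use strongly was followed through RNA-sequencing of mouse hearts: the secretoglobins Scgb1a1, Scgb3a1 and Scgb3a2, the BPI-fold proteins Bpifa1 and Bpifb1, the enzymes Cyp2f2, Cyp2a5 and Cbr2, the protease inhibitor-like protein Wfdc2, and Sec14l3. These 10 genes, of 25929 genes in the table, were chosen by name on their measured values in these same 8 libraries, so their levels, their fold changes and the number of them that limma called are a description, and no p is given for them. Expression was given as FPKM, fragments per transcript length and library depth, for 4 groups of 2 libraries, and each library is named by group and number. WT mice (strain C57BL/6) and their transgenic fat-1 littermates were 3 months old at surgery. The fat-1 mice carry the n-3 fatty acid desaturase of C. elegans and so make n-3 from n-6 polyunsaturated fatty acids. The mice underwent transverse aortic constriction (TAC), which loads the left ventricle with pressure, or a sham operation that opened the chest without a constriction. Pressure overload by TAC lasted 8 weeks. The operations gave the WT-Sham and Fat1-Sham groups beside WT-TAC and Fat1-TAC. The labels describe the tissue as ventricular and the methods as the whole heart, the promoter that drives the transgene is not given in the sources used here, and the groups are described as holding independent samples.

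Club cells are the dome-shaped secretory cells of the mouse trachea, bronchi and bronchioles. They release secretoglobins and BPI-fold proteins into the fluid that lines the airway, they clear inhaled chemicals with a strong cytochrome P450 and carbonyl reductase system, and they can renew both themselves and ciliated cells. The heart has no airway epithelium, so these genes are normally close to silent in heart muscle, with Cbr2 as an exception since some macrophages and fat tissue also use it. Not every gene of the group codes for a secreted protein: the 3 enzymes stay within the cell, and Sec14l3 is a cytosolic lipid-transfer protein that is known mostly from ciliated airway cells.

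The promoters of 8 of the 10 genes were in the part of the RefSeq promoter table (GRCm38.p6) that was searched. Scgb1a1 had no entry there, and the chromosome of Scgb3a2 was left out of the search. The 250 bases before the transcription start of Bpifa1, Cyp2a5 and Scgb3a1 are shown because these genes stand for the 3 kinds of product whose levels moved together, and because they hold most of the motif matches. Capitals mark matches on either strand to FOXA (TGTTTNC), C/EBP (TTNNGCAA), NKX2-1 (CTCAAG) and the TATA box (TATAAA), motifs of factors known from airway and liver secretory cells and of the basal promoter, and none of the matches overlapped another.
Bpifa1, chr2:154142630-154142879, plus strand: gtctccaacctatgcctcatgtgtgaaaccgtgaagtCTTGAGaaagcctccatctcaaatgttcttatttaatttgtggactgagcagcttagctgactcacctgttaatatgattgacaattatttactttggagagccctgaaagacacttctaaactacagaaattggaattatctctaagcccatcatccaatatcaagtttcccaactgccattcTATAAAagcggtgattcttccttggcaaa
Cyp2a5, chr7:26835089-26835338, plus strand: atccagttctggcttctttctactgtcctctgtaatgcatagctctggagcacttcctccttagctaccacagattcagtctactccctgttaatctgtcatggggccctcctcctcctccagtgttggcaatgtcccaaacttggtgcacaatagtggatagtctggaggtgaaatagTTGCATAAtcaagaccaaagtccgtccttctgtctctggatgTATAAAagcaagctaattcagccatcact
Scgb3a1, chr11:49663345-49663594, plus strand: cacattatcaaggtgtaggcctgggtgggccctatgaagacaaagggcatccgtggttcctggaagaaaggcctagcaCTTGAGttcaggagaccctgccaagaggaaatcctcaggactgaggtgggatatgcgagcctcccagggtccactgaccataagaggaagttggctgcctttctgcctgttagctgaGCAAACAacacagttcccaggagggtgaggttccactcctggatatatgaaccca
Both Bpifa1 and Cyp2a5 held a TATA box that began 29 bases before the start. The C/EBP match of Cyp2a5 began 71 bases before the start, and the FOXA match of Scgb3a1 began 55 bases before it. The 8 genes had 10 promoter windows of 300 bases, each with 50 bases after the start. Of these 10 windows, 3 held a FOXA match (Scgb3a1, Bpifb1 and Cbr2), against 20.5% of the 32851 promoters searched. An NKX2-1 match was present in 2 (Bpifa1 and Scgb3a1, against 15.9% of promoters), a TATA box in 2 (Bpifa1 and Cyp2a5, against 13.6%) and a C/EBP match in 1 (Cyp2a5, against 10.8%). Thus no motif of the 4 was shared by all 8 genes, and a match is a run of letters and not a known binding site.

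The 10 genes lie on 5 chromosomes (GENCODE M21, GRCm38). Bpifa1 (chromosome 2, 154142880 to 154149219) and Bpifb1 (154190818 to 154220369) are close to each other in the cluster of BPI-fold genes, Wfdc2 is farther along the same chromosome, Cyp2f2 and Cyp2a5 are on chromosome 7, Scgb3a1, Cbr2 and Sec14l3 on chromosome 11 and Scgb1a1 on chromosome 19, and Scgb3a2 lies on a chromosome of its own. For 7 of the 10, no stretch of 50 bases of the longest transcript occurred in a transcript of another gene. Cyp2a5 was the main exception, with 40.8% of its stretches present elsewhere, mostly in Cyp2a4, whose own level was at most 0.160 FPKM in any library. Cbr2 shared 15.1% with the pseudogene Gm11771, at most 0.152 FPKM. Cyp2f2 shared 182 of 1817 stretches with Gm15883, an antisense gene that overlaps it and reached 1.88 FPKM in WT-TAC2, and since a strand setting was not stated, reads of these overlapping genes cannot be told apart.

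The libraries held between 14163994 and 21218331 fragments, as recovered from the FPKM values. Both WT-TAC libraries stood apart from the other 6, and from each other. The correlation of log2(FPKM + 1) over 14442 genes was 0.898 between the 2 WT-TAC libraries and 0.981 to 0.985 within the other groups. In 40.3% of these genes both WT-TAC libraries were above all of the other 6, and the median of all genes was shifted, to a log2 fold change of 0.39 for WT-TAC over WT-Sham and -0.40 for Fat1-TAC over WT-TAC (-0.012 and -0.009 after scaling by the median of ratios). Thymocyte genes were high in WT-TAC1 alone, where the list summed to 1371 FPKM against at most 1.90 in the other libraries, and the cardiomyocyte list summed to 22860 FPKM in WT-TAC1 and to 41770 to 55600 in the others. In bulk tissue, more cells of a type and more RNA of a gene per cell cannot be told apart.

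As a group, the 10 genes were abundant in both WT-TAC hearts and near the detection limit in most of the rest. Their fragments made up 0.136% of the WT-TAC1 library and 0.349% of the WT-TAC2 library, against 0.00204% to 0.00569% of the other 6. Their FPKM values summed to 1992 (WT-TAC1) and 4957 (WT-TAC2) in the WT-TAC hearts and to between 30.4 and 89.3 elsewhere. Without Cbr2 the sum was 53.7 FPKM in Fat1-Sham1 and at most 4.44 FPKM in the other 5. All 10 genes had more than 3 fragments, the floor used for detection, in WT-TAC1, WT-TAC2 and Fat1-Sham1, whereas in each of the other 5 libraries only 3 or 4 of them did.

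**Figure D1:**
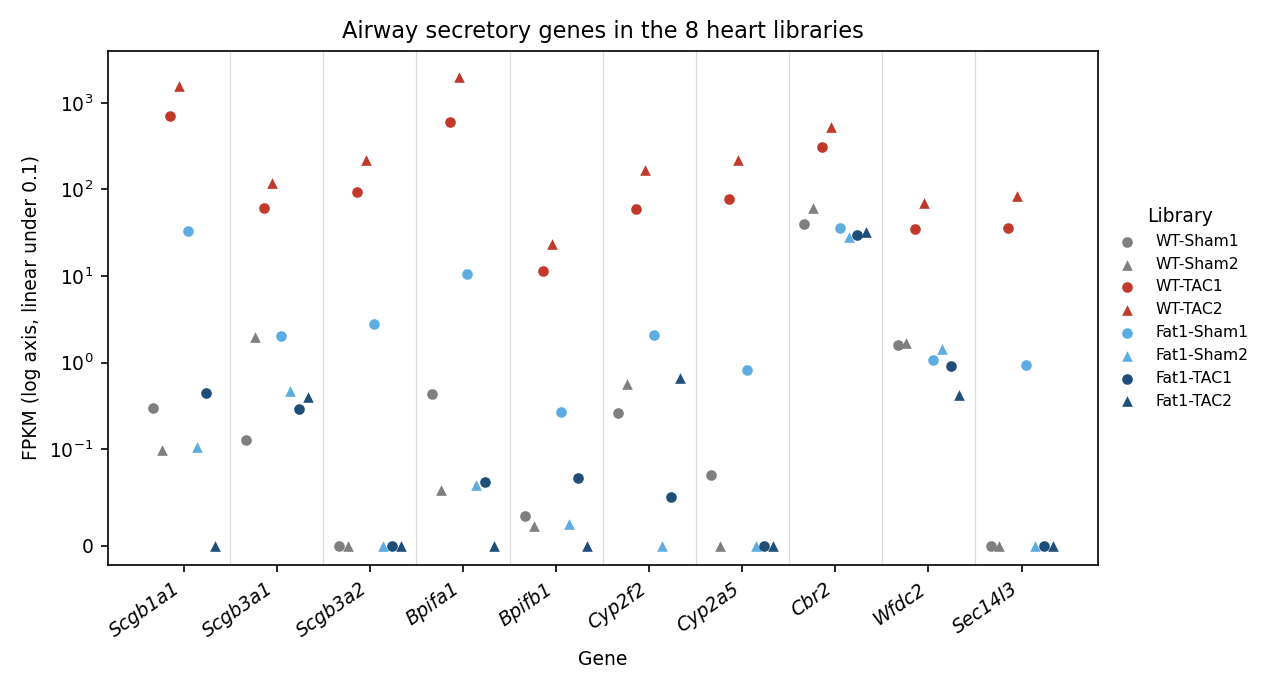
FPKM (vertical axis, logarithmic above 0.1 and linear below) of each airway secretory gene (horizontal axis) in the 8 libraries, with colours for the groups, circles for replicate 1 and triangles for replicate 2. The 2 WT-TAC points are above the other 6 in all 10 genes, WT-TAC2 is above WT-TAC1 in all 10, and Fat1-Sham1 is the highest of the other 6 in 8 genes.

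Scgb1a1, the club cell secretory protein and the most abundant protein of airway lining fluid, was at 707 FPKM in WT-TAC1 and 1555 FPKM in WT-TAC2. It was at 0.297 and 0.0990 FPKM in WT-Sham, 33.1 and 0.107 FPKM in Fat1-Sham, and 0.450 and 0 FPKM in Fat1-TAC. The 2 WT-TAC libraries were far above all others, Fat1-Sham1 stood between, and the other 5 rested on 0 to 4 fragments each. In WT-TAC2, Scgb1a1 was the 34th most abundant gene of the heart library, and in WT-TAC1 it was the 83rd. The other secretoglobins are small secreted proteins of the same fold. Scgb3a2, a marker of bronchiolar club cells, was at 92.9 and 218.6 FPKM in WT-TAC and at 2.82 FPKM in Fat1-Sham1, and had no fragment in the remaining 5 libraries. Scgb3a1, found mostly in larger airways, was at 60.5 and 120.1 FPKM in WT-TAC. It was at 0.129 and 1.99 FPKM in WT-Sham, 2.06 and 0.468 FPKM in Fat1-Sham, and 0.294 and 0.404 FPKM in Fat1-TAC. Unlike Scgb1a1 and Scgb3a2, Scgb3a1 was about as high in WT-Sham2, with 23 fragments, as in Fat1-Sham1, with 20 fragments.

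Bpifa1, an abundant surfactant-like defence protein of the upper airways, was the most abundant of the 10 in WT-TAC2. It was at 600 FPKM in WT-TAC1 and 1968 FPKM in WT-TAC2, where it ranked 27th of all genes. In WT-Sham it was at 0.436 and 0.0582 FPKM, in Fat1-Sham at 10.6 and 0.0631 FPKM, and in Fat1-TAC at 0.0661 and 0 FPKM. Its chromosomal neighbour Bpifb1, a larger secreted protein of the same family, was much lower but had the same order of libraries at the top. It was at 11.4 and 23.6 FPKM in WT-TAC and 0.270 FPKM in Fat1-Sham1, and at no more than 0.0700 FPKM in the other 5. Wfdc2, a secreted whey acidic protein that many epithelia produce, was at 34.9 and 70.7 FPKM in WT-TAC. Its lower values were 1.61 and 1.70 FPKM in WT-Sham, 1.07 and 1.46 FPKM in Fat1-Sham, and 0.916 and 0.419 FPKM in Fat1-TAC. Each of these lower values rested on 4 to 19 fragments.

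The cytochrome P450 enzymes followed the secreted proteins. Cyp2f2, the enzyme that activates naphthalene in mouse club cells, was at 59.5 and 165.8 FPKM in WT-TAC, 2.10 FPKM in Fat1-Sham1 and at most 0.669 FPKM in the other 5. Cyp2a5, an enzyme of coumarin and nicotine oxidation in nasal mucosa, lung and liver, was at 77.7 and 221.3 FPKM in WT-TAC and 0.822 FPKM in Fat1-Sham1. Of the other 5 libraries, WT-Sham1 held 1 fragment of Cyp2a5 and the rest held none. Cbr2, the carbonyl reductase of lung mitochondria, differed from the other genes because every library held it. It was at 312 and 529 FPKM in WT-TAC, 40.0 and 61.1 FPKM in WT-Sham, 35.6 and 28.3 FPKM in Fat1-Sham, and 30.2 and 32.7 FPKM in Fat1-TAC. The Fat1-TAC values of Cbr2 lay within its Fat1-Sham range. The 6 genes of resident macrophages, which may carry Cbr2, summed to between 58.0 and 109.5 FPKM over the 8 libraries, and 5 adipocyte genes summed to 591 and 768 FPKM in WT-TAC and to between 6.07 and 279 FPKM in the others; their part in the level of Cbr2 was not tested. Sec14l3 was at 36.0 and 84.3 FPKM in WT-TAC and 0.949 FPKM in Fat1-Sham1, and had no fragment in the other 5.

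The comparison of WT-TAC with WT-Sham asked how pressure overload changed the wild-type heart. Each of the 10 genes had its lower WT-TAC value above its higher WT-Sham value, as did 52.5% of all genes tested. On the log2(FPKM + 1) scale, which understates the change of genes that are low in 1 group, the fold changes ran from 3.01 ± 0.30 (SE, n = 2 against 2) for Cbr2 to 9.79 ± 1.04 for Bpifa1, with 9.78 ± 1.36 for Scgb1a1, 5.81 ± 0.45 for Sec14l3 and 4.26 ± 0.35 for Wfdc2. The median over the 10 was 5.98, against 0.39 over all genes. Ratios of pooled fragments scaled to depth, with intervals of 95% that cover counting error only, were 7.89 (7.45 to 8.37) for Cbr2, 31.2 (21.8 to 46.1) for Wfdc2, 71.5 (47.9 to 111.9) for Scgb3a1 and 245 (152.9 to 421) for Cyp2f2. Scgb1a1 gave 6232 (2132 to 30220), since WT-Sham held only 3 fragments. Scgb3a2 and Sec14l3 had 0 fragments in WT-Sham, and the lower limits of their 95% intervals were 961-fold and 703-fold higher in WT-TAC.

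Genes were called by limma where the p adjusted over all genes by Benjamini-Hochberg lay under 0.1 and the fold change exceeded 1.5. Of the 14442 tested, 0.921% were called higher after TAC in WT hearts, and all 10 genes were among them. Nothing is read from this count, because the genes had been selected on these values and 7 of them reached 1 FPKM, the limit for testing, in no library outside WT-TAC and Fat1-Sham1. For 2 libraries against 2, the smallest two-sided p that exact permutation allows is 0.333. No gene of the table was called, and so none of the 10, after removal of 1 of the WT-Sham libraries, whichever it was. Of the 7 genes that could still be tested with 1 WT-TAC library, 6 were called without WT-TAC1 and 7 without WT-TAC2, with log2 fold changes of Bpifa1 of 10.64 and 8.93. Without WT-TAC2, however, 50.5% of all genes tested were called.

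The comparison of Fat1-TAC with WT-TAC asked what the transgene changed under pressure overload, and it used the same 2 WT-TAC libraries. In each of the 10 genes the higher Fat1-TAC value lay below the lower WT-TAC value, as it did in 57.1% of all genes tested. The log2 fold changes were between -10.04 ± 1.04 for Bpifa1 and -3.65 ± 0.30 for Cbr2, with -9.77 ± 1.36 for Scgb1a1, -7.17 ± 0.64 for Scgb3a2 and -6.25 ± 0.64 for Cyp2f2, and their median was -6.12 against -0.40 over all genes. In pooled fragments, WT-TAC held 13.2 times (12.3 to 14.2) as much Cbr2 as Fat1-TAC, 77.4 times (45.0 to 145.8) as much Wfdc2 and 255 times (123.6 to 636) as much Scgb3a1. Cyp2a5, Scgb3a2 and Sec14l3 had no fragment in either Fat1-TAC library. The lower limits of their counting intervals were 1395-fold, 1001-fold and 732-fold higher in WT-TAC. Of all genes tested, 1.39% were called lower in Fat1-TAC, and all 10 were among them, from which nothing is read for the same reason. Leaving out Fat1-TAC1 or WT-TAC1 reduced the called genes among the 10, and also those among all genes. The log2 fold changes ran from -10.09 to -3.60 without Fat1-TAC1, and from -10.90 to -4.03 for the 7 genes still tested without WT-TAC1.

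**Figure D2:**
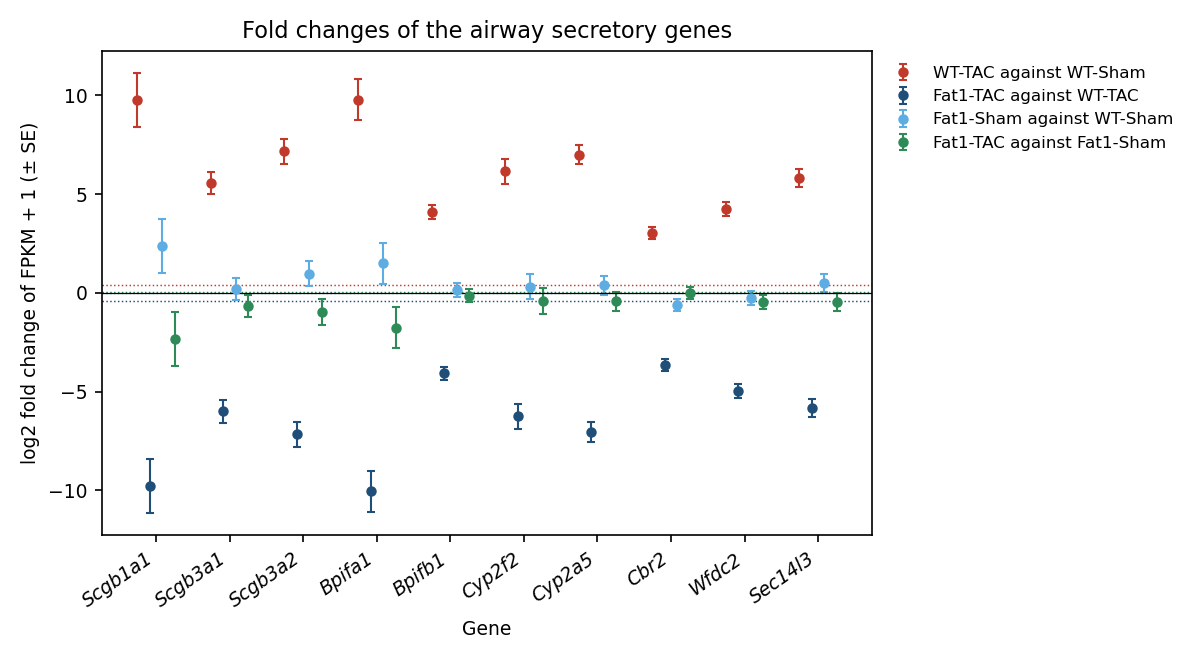
Log2 fold change of FPKM + 1 with its SE (vertical axis) for each airway secretory gene (horizontal axis) in 4 comparisons of 2 libraries against 2, where dotted lines mark the median of all genes in the same colour. WT-TAC against WT-Sham lies between 3.01 and 9.79, Fat1-TAC against WT-TAC between -10.04 and -3.65, and the comparisons without WT-TAC lie between -2.35 and 2.36.

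Comparisons that did not involve WT-TAC gave small values with wide errors. In Fat1-Sham against WT-Sham the log2 fold changes ran from -0.62 ± 0.30 for Cbr2 to 2.36 ± 1.36 for Scgb1a1, and 0 of the 10 genes were called. By limma, 0.0% of all genes were called in that comparison, although without adjustment 29 were higher and 100 lower at p under 0.05. In Fat1-TAC against Fat1-Sham they ran from -2.35 ± 1.36 for Scgb1a1 to -0.01 ± 0.30 for Cbr2, and 0 of the 10 were called, against 0.00692% of all genes. Without adjustment, 192 genes were higher and 77 lower at p under 0.05 and the same limit on fold change. The largest of these values rested on Fat1-Sham1, since Scgb1a1 differed 308-fold between the 2 Fat1-Sham libraries after scaling to depth, with 280 fragments against 1 (interval 54.8 to 12210).

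The interaction, the surgery response of fat-1 hearts minus that of WT hearts, asked whether TAC acted differently in the 2 genotypes. It was negative for all 10 genes, from -12.13 ± 1.92 for Scgb1a1 to -3.03 ± 0.42 for Cbr2, with a median of -6.43 against -0.37 over all genes. In this term 0.0623% of all genes were called lower, and 5 of the 10 were among them: Cyp2a5, Sec14l3, Wfdc2, Scgb3a2 and Bpifb1. Scgb1a1 and Bpifa1, with larger values, were not called, and their SE was 1.92 and 1.47, against 0.48 to 0.90 for the 5. When a WT-Sham library, a Fat1-TAC library or Fat1-Sham1 was left out, fewer or none of the 10 were called, and fewer of all genes. When WT-TAC1 or WT-TAC2 was left out, calls rose among the 10 and among all genes alike. The values of the 10 remained negative, from -12.40 to -2.97 without Fat1-TAC1 and from -9.83 to -2.87 without Fat1-Sham1.

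WT-TAC2 held more of every gene than WT-TAC1, but not by 1 common factor. Scaled to depth, the ratio of WT-TAC2 to WT-TAC1 was 3.28 (3.21 to 3.36) for Bpifa1, 2.85 (2.68 to 3.03) for Cyp2a5 and 2.79 (2.61 to 2.98) for Cyp2f2. It was 2.20 (2.13 to 2.26) for Scgb1a1, 2.35 (2.20 to 2.52) for Scgb3a2, 1.98 (1.80 to 2.19) for Scgb3a1 and 1.70 (1.63 to 1.77) for Cbr2. The intervals of Bpifa1, Scgb1a1 and Cbr2 were apart, so the mixture of these transcripts differed between the 2 libraries by more than counting error.

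Levels relative to Scgb1a1 within a library, both per length, show the mixture without the total amount. In WT-TAC1 and WT-TAC2, Bpifa1 was at 84.8% and 126.6% of Scgb1a1, Cbr2 at 44.1% and 34.1%, Scgb3a2 at 13.1% and 14.1%, and Sec14l3 at 5.08% and 5.42%. Bpifb1 was the lowest of the 10, at 1.61% and 1.52%. The order of the genes was therefore nearly the same in both WT-TAC hearts, with 3 pairs of neighbours changing places: Bpifa1 and Scgb1a1 at the top, Scgb3a2 and Cyp2a5, and Scgb3a1 and Cyp2f2.

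Fat1-Sham1, a sham-operated heart, carried a smaller amount of the same genes in another mixture. Its Scgb1a1 level was 21.4 times (19.0 to 24.2) below that of WT-TAC1 and 47.0 times (41.8 to 53.1) below that of WT-TAC2. Bpifa1 was at 31.9% of Scgb1a1 there (26.01 to 39.0), less than in either WT-TAC library, and Cyp2a5 was at 2.48% (1.34 to 4.24), against 11.0% and 14.2% in WT-TAC. By contrast, Sftpc, the surfactant protein of alveolar type 2 cells, was at 90.5% of Scgb1a1 in Fat1-Sham1 (77.7 to 105.6), at 10.6% in WT-TAC1 and at 0.00891% in WT-TAC2 (0.00108 to 0.0322), where it had 2 fragments. Ltf, a secreted iron-binding protein of glands and neutrophils, was at 10.1% and 12.6% of Scgb1a1 in WT-TAC and at 0.499% in Fat1-Sham1 (0.0602 to 1.82). Among the 3 hearts with airway secretory transcripts, these companions thus differed: Sftpc with Scgb1a1 in Fat1-Sham1, Ltf in WT-TAC2, and both in WT-TAC1. Sftpa1, a further surfactant gene of alveolar type 2 cells, went otherwise. It was at 7.70 FPKM in WT-TAC1, 3.515 FPKM in WT-TAC2, 3.82 FPKM in Fat1-Sham1 and 0 elsewhere.

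**Figure D3:**
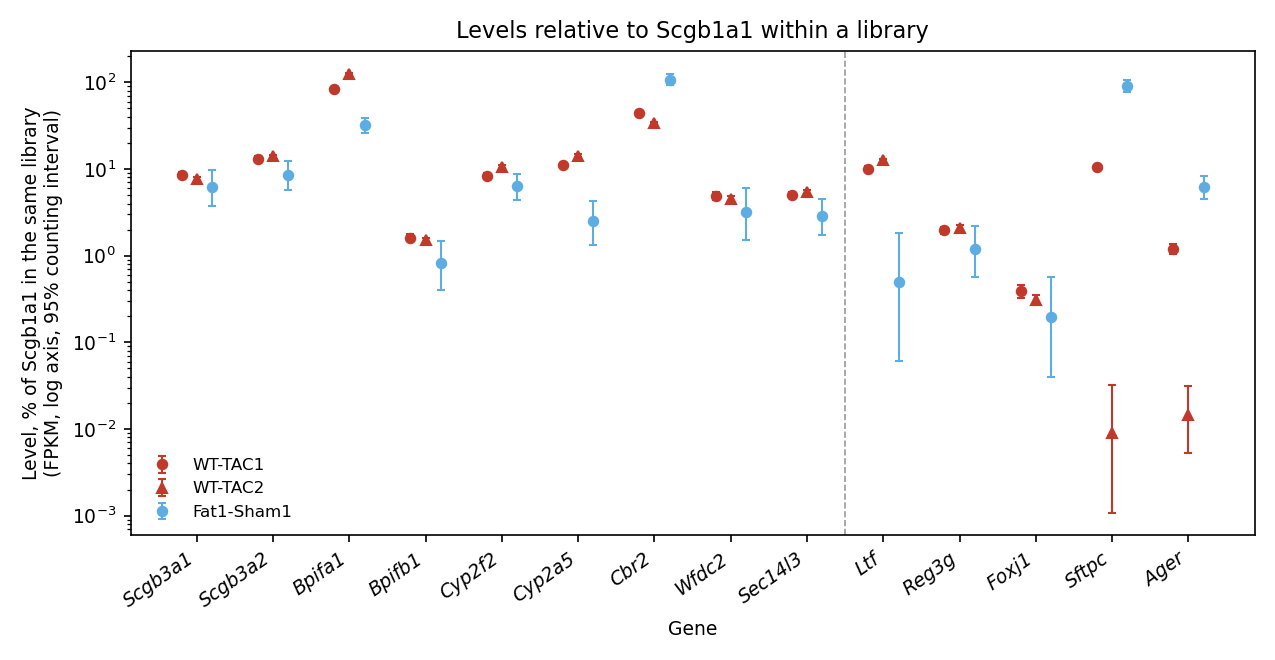
FPKM of each gene as a percentage of Scgb1a1 in the same library (vertical axis, logarithmic, bars are 95% counting intervals) for the 9 other airway secretory genes and, right of the dashed line, 5 companion genes, in WT-TAC1, WT-TAC2 and Fat1-Sham1. Sftpc is at 90.5% in Fat1-Sham1 and 0.00891% in WT-TAC2, whereas Sec14l3 is between 2.87% and 5.42% in the 3 libraries.

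Further genes of airway secretory cells, a list of 35 that leaves out the 10, were measured in all libraries, and 28 passed the limit for testing. Of the 28, 10 passed it only through WT-TAC, where they were high, and these held 7 of the 9 and 8 of the 11 calls given next, so the counts and medians describe the list and support nothing, the more so as the list was chosen with earlier results of these data known. Between the WT groups, 9 were called higher after TAC and 0 lower, beside 0.921% of all genes called higher. Their median log2 fold change was 1.43, beside 0.39 over all genes. Between the TAC groups, 11 were called lower in fat-1 hearts and 0 higher, beside 1.39% of all genes called lower. The median was -1.52 beside -0.40. Secreted and apical products gave 6 of 10 tested in each of these comparisons, namely Ltf, Reg3g, Pigr, Lypd2, Tff2 and Agr2. Ltf was at 0.104 and 0.484 FPKM in WT-Sham and at 71.2 and 196.4 FPKM in WT-TAC. Reg3g, a C-type lectin that kills Gram-positive bacteria, was at 0 in both WT-Sham hearts and at 13.8 and 32.7 FPKM in WT-TAC, and Pigr, the receptor that carries IgA into secretions, was at 0 in both and at 4.98 and 10.04 FPKM. Lypd2, which every heart held, was at 2.86 and 1.59 FPKM in WT-Sham and at 13.5 and 38.2 FPKM in WT-TAC, and Retnla, at 49.7 and 44.5 FPKM in WT-TAC, did not pass. Muc5ac, the mucin of goblet cells, stayed at or under 0.0425 FPKM in every library.

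Among 12 detoxifying enzymes, 2 were called higher in WT-TAC: the retinal dehydrogenase Aldh1a1, from 22.9 and 36.0 to 88.7 and 146.4 FPKM, and Cyp2b10. Ces1d and Gsto1, the most abundant of that list, were at 157 to 165 and 118.8 to 134.4 FPKM in WT-Sham and did not pass, with log2 fold changes of 0.57 ± 0.26 and 0.19 ± 0.29. Among 7 regulators of the airway epithelium, only 3 could be tested, and Foxa1 was at 0 in both WT-Sham hearts and at 1.48 and 2.38 FPKM in WT-TAC. Nkx2-1, which specifies lung and thyroid, was at 0.659 and 0.749 FPKM in WT-TAC, 0.156 FPKM in Fat1-Sham1 and 0 in the other 5, and Sox2 was at 0.760 and 1.49 FPKM in WT-TAC and at most 0.0687 FPKM elsewhere. Creb3l1 and Grhl2, the other regulators tested, had log2 fold changes of 0.20 ± 0.25 and 0.44 ± 0.27. Of the membrane and other genes, Hp (118.7 and 146.1 FPKM in WT-TAC, 23.6 and 56.2 FPKM in WT-Sham) and Cldn10 (2.39 and 1.78 against 0.443 and 0.591 FPKM) did not pass, and Msln was called in Fat1-TAC alone, where it was lower than in WT-TAC. Counts for these 35 genes depended on the scaling: after scaling by the median of ratios, 2 were called in each of the same comparisons.

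Relatives of the 10 in the same gene families had smaller differences. Of 39 relatives, 19 were analysed here and 12 tested, 0 were called between the WT groups by limma, and Cbr3 alone was called lower in Fat1-TAC than in WT-TAC. Their median log2 fold changes were 0.53 and -0.61. Sec14l1 was at 45.2 and 39.6 FPKM in WT-Sham and 54.6 and 56.4 FPKM in WT-TAC, and Cbr1 was at 17.7 and 20.8 FPKM against 31.7 and 25.5 FPKM. Cbr4 was at 25.4 and 23.0 FPKM against 17.5 and 22.3 FPKM. Cyp2a4, the nearest relative of Cyp2a5, had 4 and 5 fragments in WT-TAC and none in the other 6 libraries.

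Markers of other cell types show what accompanied the secretory genes. Ciliated cells, the partners of club cells in the airway, were represented by 14 genes, of which 7 of 9 tested were called higher between the WT groups and 8 lower in fat-1 hearts between the TAC groups, beside 0.921% and 1.39% of all genes. Of the 9, 7 passed the limit for testing only through WT-TAC, and these held 7 of the calls in each comparison, so the counts are a description. Foxj1, the master regulator of motile cilia, was at 2.75 and 4.80 FPKM in WT-TAC and at most 0.108 FPKM in the other 6, and Ccdc153 was at 12.9 and 9.84 FPKM against at most 0.149 FPKM. Relative to Scgb1a1, Foxj1 was at 0.389% (0.327 to 0.459) in WT-TAC1 and 0.309% (0.269 to 0.352) in WT-TAC2. Tppp3 and Cfap126, both among the 3 most abundant of the list, were present in every heart, with Tppp3 between 14.9 and 43.4 FPKM. In all 14 ciliated genes both WT-TAC libraries lay above the other 6, as in 40.3% of all genes tested.

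Summed levels of epithelial and basal cell genes were also highest in WT-TAC, but higher in WT-TAC1 than in WT-TAC2, the reverse of the secretory genes. The 10 general epithelial genes summed to 240.1 FPKM in WT-TAC1, 88.7 FPKM in WT-TAC2 and between 5.46 and 14.5 FPKM elsewhere. Between the WT groups, 6 of 10 were called higher, beside 0.921% of all genes. Of these 6, 5 passed the limit for testing only through WT-TAC, so the count is a description. Krt8 was at 82.6 and 23.0 FPKM in WT-TAC and Krt18 at 97.6 and 16.5 FPKM, while Krt19 was at 22.5 and 27.8 FPKM. Krt5, a keratin of basal cells, was at 47.2 FPKM in WT-TAC1 and 2.47 FPKM in WT-TAC2, Krt14 was at 19.4 and 1.74 FPKM, and Krt15, the 1 called of 3 basal genes tested, was at 6.46 and 17.2 FPKM. Thymic stroma also uses such keratins, and WT-TAC1 was the heart with thymocyte genes (Cd4 at 301.8 FPKM, Cd8b1 at 275.5 FPKM and Dntt at 267 FPKM, against 1.36, 0.225 and 0.0265 FPKM in WT-TAC2). Their part in the levels of the airway secretory genes was not tested.

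Alveolar markers were mixed, with both WT-TAC libraries above the other 6 in 3 of 8 type 2 genes and 2 of 5 type 1 genes. Sftpc was at 74.7 FPKM in WT-TAC1, 0.139 FPKM in WT-TAC2 and 29.9 FPKM in Fat1-Sham1, and 0 of 6 tested type 2 genes were called. Abca3 was at 11.1 and 7.83 FPKM in WT-TAC and between 4.05 and 5.92 FPKM in the other 6, and Lyz1 at 9.74 and 6.22 FPKM against 1.40 to 3.32 FPKM. The type 1 cell gene Ager was at 8.51 FPKM in WT-TAC1 and 2.05 FPKM in Fat1-Sham1, and at 0.225 FPKM in WT-TAC2. Aqp5, a water channel of type 1 cells, glands and airway, was at 4.13 and 6.998 FPKM in WT-TAC and was the 1 called gene of that list, and Rtkn2 was at 2.62 and 0.0916 FPKM. In the list of submucosal and salivary gland, 2 of 7 genes were analysed, Aqp5 and Muc19, the latter at most 0.0380 FPKM.

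Cartilage genes, which occur in the rings of the trachea and bronchi as well as in the aortic root and valves, were abundant in WT-TAC for Cytl1 (45.4 and 65.9 FPKM) and Comp (29.4 and 34.8 FPKM), and WT-Sham2, which had almost none of the airway secretory genes except Cbr2, held 41.3 FPKM of Cytl1 and 35.4 FPKM of Comp. Chad was at 7.42 and 13.4 FPKM in WT-TAC and 8.25 FPKM in WT-Sham2. Acan alone of 4 tested was called, at 1.49 and 2.22 FPKM in WT-TAC and 0.199 FPKM in WT-Sham2. Col2a1 was at 0.945 and 2.61 FPKM in WT-TAC and 0.147 FPKM in WT-Sham2. In 6 of the 8 cartilage genes both WT-TAC libraries lay above the other 6, as in 40.3% of all genes tested. Thyroid and oesophagus genes were close to 0 throughout: Tg was between 0.558 and 1.34 FPKM, Tshr at most 1.04 FPKM, Pax8 at most 0.0394 FPKM, and Krt4 and Krt13 at most 0.446 FPKM. None of the resident macrophage genes (F13a1, Mrc1 and Lyve1 the most abundant), adipocyte genes (Cfd, Adipoq and Cidec) and cardiomyocyte genes (Myh6, Myl2 and Actc1) was called by limma in any comparison. Over the 6 cardiomyocyte genes the median log2 fold change was -0.55 between the WT groups, beside 0.39 over all genes.

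**Figure D4:**
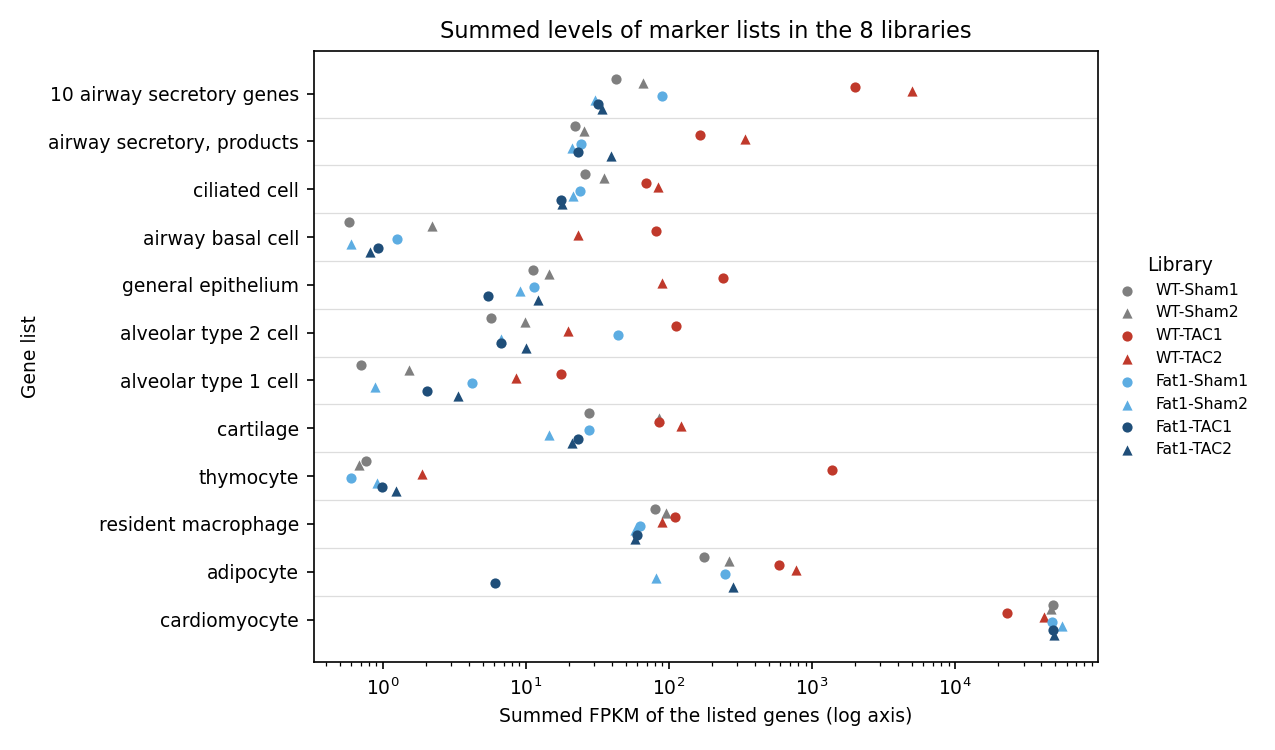
Summed FPKM of the airway secretory genes and of 11 marker lists (horizontal axis, logarithmic) in the 8 libraries, with colours for the groups, circles for replicate 1 and triangles for replicate 2. The airway secretory sum is 1992 and 4957 FPKM in WT-TAC and at most 89.3 FPKM elsewhere, while the thymocyte sum is high in WT-TAC1 alone (1371 FPKM) and the alveolar type 2 sum in WT-TAC1 (111.8 FPKM) and Fat1-Sham1 (44.4 FPKM).

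Across the 8 libraries, the other 9 genes followed Scgb1a1 with Pearson's r of log2(FPKM + 1) from 0.902 for Cbr2 to 0.992 for Bpifa1. These coefficients describe 8 points of which 2 lie far from the rest, and all points share the depth and tissue of their library. Among the 9260 genes that reached 10 FPKM in some library, the 10 outside the group with the highest r were Ascc1, Tmed10-ps, Reg3g, Htra2, Sik2, Lypd2, Tlcd1, Pigr, Mecr and Ptpn14, from 0.972 to 0.938. Reg3g, Lypd2 and Pigr are secretory genes with large differences between libraries. Ascc1, the highest, ran only from 11.8 to 15.4 FPKM, with its 3 highest values in WT-TAC2, WT-TAC1 and Fat1-Sham1, so a high r here gives the order of the libraries and not the size of the difference.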

How the data were processed

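Total RNA of hearts was sequenced by the study on an Illumina HiSeq after library preparation with the NEBNext Ultra RNA kit. Per the submitters' processing notes, HISAT2 and the builds mm10 and GRCm38 were used. The counting program, versions, annotation and strand setting are not given in the sources used here. The authors deposited FPKM values for 25929 genes, and the methods name pairwise comparisons with an adjusted p under 0.1 and a fold change of 1.5.

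The 10 genes and all marker lists were chosen with earlier results of these data known. Whole fragments were recovered by a search, gene by gene, for the length that turns all 8 FPKM values into whole numbers, which succeeded for 100% of genes (10807 with the median transcript length of GENCODE M21). Another 14827 genes, among them all of the 10 except Scgb1a1, took a length outside the annotation. Because multiples of a fitting length can fit as well, fragment numbers of such genes assume that the chosen length was the one used. Recovered fragments gave the depths (14163994 to 21218331 per library, 99.79% to 99.88% on listed genes), the floor of 3 fragments and exact conditional 95% intervals. Because PCR copies were not marked by molecular identifiers, intervals and floors cover counting error only. Gene symbols came with 25852 genes, and 77 genes without a symbol were kept for the fits.

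Values were tested as log2(FPKM + 1) for the 14442 genes that reached 1 FPKM in 2 libraries or more with limma (version 3.58.1, R 4.3.3; lmFit and eBayes with a trend), all 8 libraries and 4 group means, with Benjamini-Hochberg adjustment over all genes. The script was tested on simulated data. The labels call the samples of a group independent but do not say from how many animals, so the spread is that between 2 libraries.

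Genes named are the 10, the 3 of each list with the highest mean in WT-TAC, any list gene called in a comparison without WT-TAC (there were 0), Cyp2a4, and the 10 genes with the highest r with Scgb1a1. Tff2, Agr2, Scgb1c1, Muc5b, Cyp2b10, Nkx2-1, Sox2, Muc5ac, Foxj1, Sftpa1, Acan, Col2a1, Cbr3, Gm11771 and Gm15883 were singled out with their values in view. Alternatives were median-of-ratios scaling, quantile normalization, no filter, a mean of at least 5 FPKM as the filter, 0.1 as the pseudocount, fits with only the groups compared, a replicate block, a per-gene test with equal variances, limma-voom on recovered fragments, and each library left out. The crossed block was added after seeing the data. Promoters are from RefSeq (GRCm38.p6), without 1 chromosome. Descriptions were computed in Python 3.11.15.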

Additional observations from a re-analysis of the deposited data

Results flagged for a closer look

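In the interaction of genotype and surgery, fitted by limma over all genes, 0.0623% of all genes were called lower, among them 5 of the 10 airway secretory genes and 3 genes of the other lists, and each is given here because its response to surgery differed between the genotypes in that fit. As the log2 fold change of TAC against sham in fat-1 hearts minus that in WT hearts, on the log2(FPKM + 1) scale, the difference was -8.13 ± 0.90 (SE) for Scgb3a2, -7.43 ± 0.70 for Cyp2a5, -6.29 ± 0.64 for Sec14l3, -4.71 ± 0.50 for Wfdc2 and -4.23 ± 0.48 for Bpifb1. These 5 had been selected on their values, so the calls are a description. The difference was -6.63 ± 0.64 for Ltf, -3.72 ± 0.32 for Ccdc153 and -4.72 ± 0.56 for Reg3g, which were at most 0.484 FPKM outside WT-TAC, passed the limit for testing only through WT-TAC and came from lists chosen with earlier results known, so these calls are a description too. In all 8 genes both WT-TAC libraries lay above the other 6, as in 40.3% of all genes tested. The 2 WT-TAC libraries differed from each other more than the replicates of the other groups did, and a response to TAC in WT hearts and another property of these 2 hearts cannot be told apart.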

How the results depend on the processing

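Over 326 recomputed fold changes of the 10 genes, 0 changed direction and 275 moved by less than the spread between libraries, while the counts of calls depended on the setting. Between the WT groups, 10 of the 10 were called in the reported fit, 0 with the per-gene test that assumes equal variances, 1 with limma-voom on recovered fragments, and 0 to 10 when a library was left out. For Fat1-TAC against WT-TAC, 10 became 0 with the per-gene test, 4 with limma-voom, and 2 to 10 when a library was left out. In both comparisons without WT-TAC the count was 0 under every setting run. For the interaction, the 5 calls became 0 with the median of ratios, quantile normalization, a mean of at least 5 FPKM, a pseudocount of 0.1, the per-gene test and limma-voom. Of all genes, 0.0692% were called in either direction in the reported fit. That share was 0.00692% with the median of ratios, 0.09% with the per-gene test and 0.0% with the rest of these settings. With a library left out, calls among the 10 and among all genes rose together without WT-TAC1 or WT-TAC2, and did not rise otherwise. Where a group kept 1 library, that library was assumed to vary like the other groups, and Bpifb1, Cyp2a5 and Sec14l3 could not be fitted without either WT-TAC library.

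For the other 35 airway secretory genes, the highest counts with a library left out came without WT-TAC2, where calls rose among all genes alike. Nothing is read from these highest counts, because that fit also leaves WT-TAC without a replicate. In the reported fit, 9 of the 35 genes were called in WT-TAC against WT-Sham. That number was 2 with the median of ratios, 1 with quantile normalization, 1 with the mean filter, 3 with a pseudocount of 0.1, 4 with only the groups compared, 1 with the per-gene test, 0 with limma-voom, and 0 to 12 when a library was left out. In Fat1-TAC against WT-TAC the 11 calls became 2, 1, 1, 4, 2 and 1 under the first 6 of these settings, and 1 to 14 when a library was left out. The low ends came without a WT-Sham library and without Fat1-TAC1, and WT-TAC1 left 3 and 4 calls when removed.

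Among all genes, the 133 called higher and 2 called lower after TAC in WT hearts became 23 and 0 with the median of ratios, 16 and 0 with quantile normalization, 286 and 7 without the filter, 9 and 0 with the mean filter, 33 and 0 with the pseudocount, 97 and 1 with only the groups compared, 30 and 0 with the per-gene test and 6 and 0 with limma-voom. The 5 higher and 201 lower in Fat1-TAC than in WT-TAC became, in the same order, 1 and 19, 1 and 13, 8 and 342, 1 and 14, 2 and 31, 1 and 40, 0 and 30, and 2 and 106. The cause of these differences was not tested.

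With the replicate number as a block, 10 of the 10 genes were called in each comparison with WT-TAC and 0 in the interaction, the other airway secretory genes gave 4 and 5 calls, and all genes gave 52 higher and 0 lower, and 1 higher and 51 lower. Same-numbered libraries did not deviate together, with correlations of -0.047, -0.041, -0.113 and -0.135 over the 4 comparisons, so the numbers were not taken to pair the samples. Crossed numbers, tried after the values were seen, gave 0 calls among the 10 in both comparisons without WT-TAC. Outside WT-TAC and Fat1-Sham1, the genes other than Cbr2 had at most 23 fragments in a library, which limits the precision of those values.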
